A study of Mus musculus with 8 samples.

Results

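The genes described here encode the subunits of the ionotropic and metabotropic glutamate receptors, the GABA-A receptors (rho subunits included) and the glycine receptors. They were chosen by name: every gene whose single symbol in the platform annotation begins with Gria, Grik, Grin or Grm and a number, with Gabr and a subunit letter, or with Glra or Glrb, leaving out Grina and the Grinl genes. That gave 41 of the 18193 genes measured, with 82 of the 45037 probe sets, and each gene was represented by its brightest probe set over all arrays. By class there were 4 AMPA, 5 kainate, 6 NMDA, 6 metabotropic glutamate, 15 GABA-A and 5 glycine receptor genes. Other genes of these families were not analysed here.

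Photoreceptors and bipolar cells release glutamate. OFF bipolar and horizontal cells read the photoreceptors' glutamate through AMPA and kainate receptors, which are cation channels, while ON bipolar cells read it through the metabotropic receptor mGluR6. Amacrine and ganglion cells carry AMPA and NMDA receptors for the bipolar cells' glutamate, and GABA and glycine, the transmitters of amacrine cells, open chloride channels built from GABA-A, rho and glycine receptor subunits. Bipolar cell terminals are known for receptors made of rho subunits.

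The measurements are log2 expression values, as deposited, of 8 Affymetrix 3′ arrays, 1 per retinal RNA sample. The mice (strain label BALB/c AJ) were kept under a daily light and dark cycle, and their retinas were freed of pigment epithelium on postnatal day 40. By genotype label, 3 samples are wild type, 2 carry 1 null allele of Nxnl1 (the gene of rod-derived cone viability factor) and are called heterozygous, and 3 are homozygous for the null allele; no treatment is named. The design text counts 9 samples, of which 1 is not analysed here. Whether samples of a genotype are separate animals is not stated, so every p-value reflects only how far these samples spread, and that spread may be technical. In whole retina, fewer cells of a type and less RNA per cell cannot be told apart.

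The level of Nxnl1 went against the label of 2 arrays. With its brightest probe set it was 9.22, 8.87 and 8.65 in wild type, 8.65 on heterozygous 1 but 6.75 on heterozygous 2, and 6.13 on homozygous 1 and 3 but 8.76 on homozygous 2. The array labelled homozygous 2 thus lay within the wild-type range, and the array labelled heterozygous 2 lay near the other homozygous arrays. Counts and medians of the homozygous minus wild type differences are therefore given with and without those 2 arrays. So are single differences that moved much without them. Counts of groups without overlap are given with all arrays only. Markers of the labelled tissue were high on all arrays, with the rod list (5 of 7 genes measured) averaging 13.65 to 13.83 and the bipolar list (8 of 9) 9.49 to 9.72. Genes of the pigment epithelium and choroid (8 of 8 measured), which the dissection was to remove, averaged 7.997 to 8.77, with a homozygous minus wild type difference of -0.19 in that average. Lens genes (11 of 12 measured) averaged between 5.15 and 8.68, a range far wider than that of the neuron lists. Actin, read near both ends of its transcript, gave a 5′ minus 3′ log2 difference of -1.81 on wild type 1 and -1.74 on homozygous 1, and of -1.26 to -0.69 on the other 6 arrays.

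No receptor gene passed the test in any comparison of the labelled genotypes. The test was limma's moderated test, adjusted by Benjamini-Hochberg over all 45037 probe sets with a threshold of 0.05. It called 0 probe sets of any gene (0% of those tested) for homozygous minus wild type, for heterozygous minus wild type and for homozygous minus heterozygous, and 0 again for homozygous minus wild type without heterozygous 2 and homozygous 2. An ordinary test without moderation also called 0. Nxnl1 itself was therefore not called either. Its homozygous minus wild type difference was -1.91 (SE 0.73, limma adjusted p = 0.9999), or -2.78 without heterozygous 2 and homozygous 2. The SE of 0.73 includes the 2 arrays that went against their labels. It was wider than the SEs of the receptor genes, which ran from 0.09 (Gabrq) to 0.34 (Grik2). The Nxnl1 result therefore says little about the receptor genes, and a lack of calls alone does not exclude differences among them. At an unadjusted limma p under 0.05, homozygous minus wild type had 1 receptor gene higher (Grik1), beside 0.621% of all genes, and 0 lower, beside 0.22%. Heterozygous minus wild type had 0 higher and 0 lower, beside 0.451% and 0.72% of all genes, and homozygous minus heterozygous likewise had 0 and 0, beside 0.632% and 0.176%.

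The 41 differences were small and spread to both sides of 0. For homozygous minus wild type they ran from -0.25 (Grm3) to 0.54 (Grik1) on the log2 scale, with a median of 0.02, and 26 of the 41 (63.4%) were above 0. All 18193 genes had the same median of 0.02, with 60.5% above 0. Heterozygous minus wild type gave a median of -0.0020 with 20 genes above 0, beside 47.6% of all genes. Homozygous minus heterozygous gave a median of 0.03 with 26 above 0, beside 63.7%. Gabrg3 had the largest of these differences, 0.37 (SE 0.30) and -0.42 (SE 0.30), and Grik1 had 0.38 in the latter. At least 0.3 from 0 lay 423 and 432 of all genes. Both of these comparisons share samples with the first, so their values are not separate evidence. Without heterozygous 2 and homozygous 2, the homozygous minus wild type median was 0.11 with 29 genes above 0, where all genes had a median of 0.05 and 63% above 0. Without wild type 1 and homozygous 1, the median was instead -0.0077 with 19 receptor genes above 0, where all genes had 0.01 and 55%. For homozygous minus wild type, 1 receptor gene (Grik1) lay at least 0.3 from 0 with all arrays, as did 277 of the 18193 genes. There were 7 such receptor genes, and 1281 of all genes, without heterozygous 2 and homozygous 2: Gria1, Grik1, Grin2b, Grm4, Grm5 and Gabra3 above it and Grik2 below it.

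**Figure D1:**
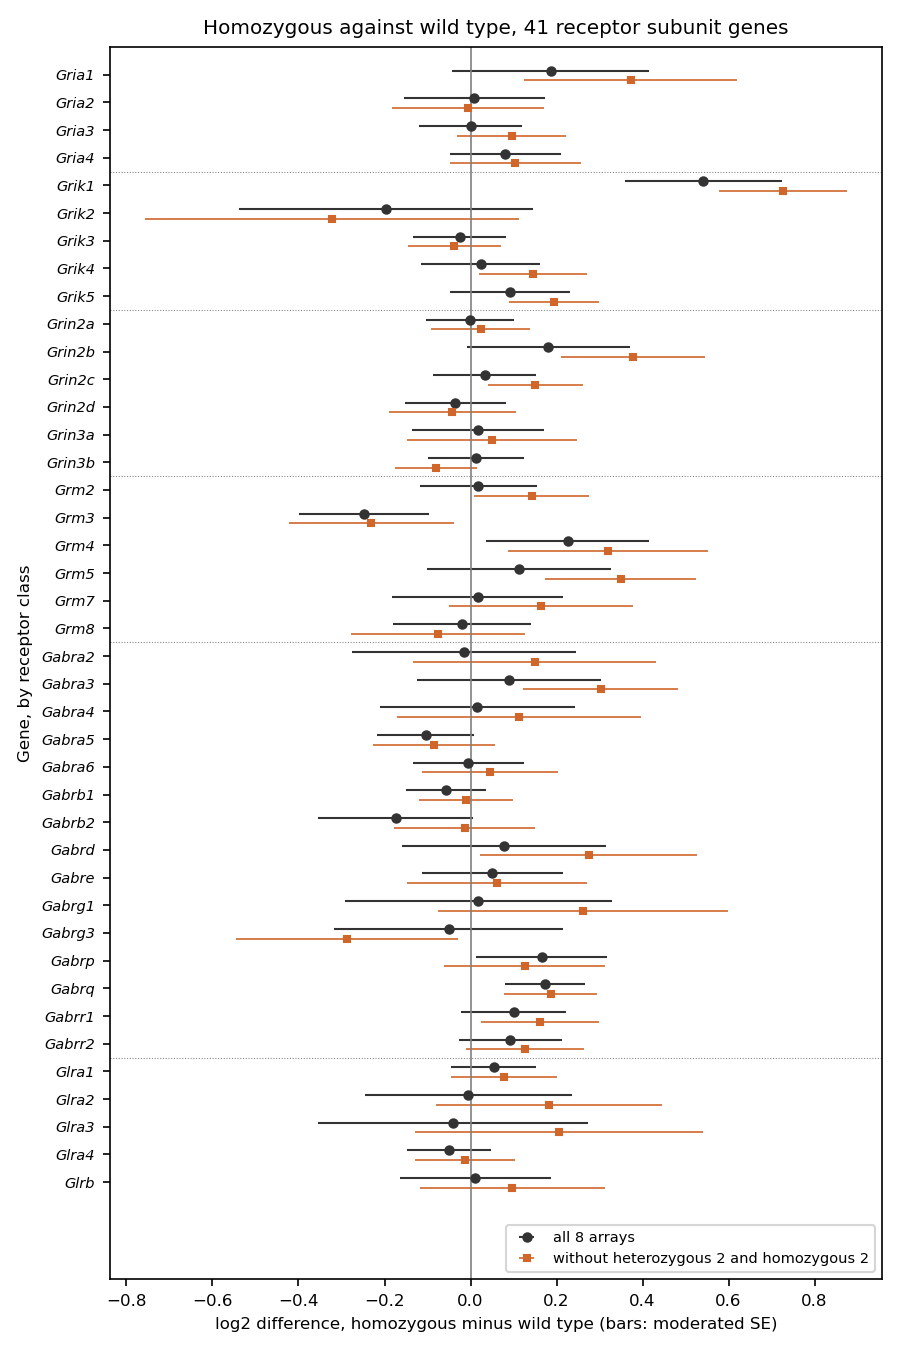
Log2 difference of homozygous minus wild type for each of the 41 receptor genes, grouped by class, with all 8 arrays (circles) and without the arrays labelled heterozygous 2 and homozygous 2 (squares); bars are the moderated standard error. Grik1 stands farthest from 0, at 0.54 and 0.73, and most other intervals of 1 standard error cross 0.

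Groups that do not overlap are another plain measure, counted here with all arrays. For homozygous against wild type, 2 receptor genes (Grik1 and Gabrq) had all homozygous arrays above all wild-type arrays, beside 3.25% of all genes, and 0 had them all below, beside 1.58%. For heterozygous against wild type, Gabra5 and Grin2b lay above without overlap (6.95% of all genes did) and Grin2c lay below (8.03%). For homozygous against heterozygous, Grm4 lay above (7.58%) and Gabra5 below (3.42%).

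Grik1, which encodes the kainate receptor subunit GluK1 known from OFF cone bipolar cells, had the largest genotype difference. Its brightest probe set measured 4.87, 4.70 and 4.61 on the wild-type arrays, 4.74 and 5.02 on the heterozygous arrays and 5.62, 4.89 and 5.28 on the homozygous arrays. All 3 homozygous arrays lay above all 3 wild-type arrays, although homozygous 2 exceeded wild type 1 by little, and the 3 highest arrays were homozygous 1, homozygous 3 and heterozygous 2. Homozygous minus wild type was 0.54 (SE 0.18, limma unadjusted p = 0.0174, adjusted p = 0.9999). Without heterozygous 2 and homozygous 2 it was 0.73 (SE 0.15, limma unadjusted p = 0.0030, adjusted p = 0.976), and Grik1 was again the 1 receptor gene higher at an unadjusted p under 0.05, beside 1.9% of all genes, with 0 lower, beside 0.511%. Leaving out 1 array at a time gave 0.36 (without homozygous 1) to 0.73 (without homozygous 2). The adjusted p stayed above the threshold at every setting tried, and was lowest, 0.284, with array weights.

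A second Grik1 probe set did not show the difference. It measured 3.86, 3.80 and 3.58 on the wild-type arrays, 3.87 and 3.68 on the heterozygous and 3.59, 3.89 and 3.46 on the homozygous arrays, so that homozygous minus wild type was -0.10 (SE 0.14). Its values lay below the 25th percentile of all probe set means (4.39), and the brighter probe set lay between that and the median (6.19). With the mean of both probe sets the difference was 0.22. The lens genes averaged 8.68 on homozygous 1, 7.18 on homozygous 3, 7.66 on heterozygous 2 and 8.18 on wild type 1, against 5.15 to 6.02 on the other 4 arrays. Their part in the Grik1 difference was not tested.

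The other kainate genes include Grik2 and Grik3, which encode subunits that can form channels alone, and Grik4 and Grik5, which encode high-affinity subunits that need a partner. Grik2 measured 5.09, 5.32 and 6.56 on the wild-type arrays, 5.80 and 5.63 on the heterozygous and 5.28, 5.71 and 5.39 on the homozygous arrays. Its range over the arrays, 1.47, was the widest of the 41 genes, with wild type 3 well above the other arrays. The homozygous minus wild type value, -0.20 (SE 0.34), became 0.26 without that array and -0.32 (SE 0.43) without heterozygous 2 and homozygous 2. Grik5 measured 8.73, 8.77 and 8.62, then 9.03 and 8.61, then 8.94, 8.59 and 8.86 in the same order, with overlapping groups and a difference of 0.09 (SE 0.14), or 0.19 (SE 0.11) without heterozygous 2 and homozygous 2. Grik3 had the smallest unadjusted p of the class for heterozygous minus wild type, at -0.15 (SE 0.12, limma unadjusted p = 0.250), and its groups overlapped too.

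Among AMPA receptor genes, all 4 differences of homozygous minus wild type were above 0 and none was large: 0.19 for Gria1 (SE 0.23), 0.0088 for Gria2 (SE 0.16), 0.0002 for Gria3 (SE 0.12) and 0.08 for Gria4 (SE 0.13). The count above 0 was 3 without heterozygous 2 and homozygous 2. Of all genes, 60.5% lay above 0 with all arrays and 63% without those 2. Gria2 encodes the subunit that makes AMPA receptors poorly permeable to calcium. It measured 10.07, 10.36 and 10.34 on the wild-type arrays, 10.49 and 10.04 on the heterozygous and 10.02, 10.30 and 10.48 on the homozygous arrays. The groups covered almost the same interval. Gria1 measured 8.28, 7.89 and 7.43, then 8.01 and 8.11, then 8.20, 7.68 and 8.28. Its lowest array was wild type 3, and without it the difference was -0.03, against 0.39 without wild type 1 and 0.37 without heterozygous 2 and homozygous 2. Gria4 measured 9.34, 9.49 and 9.77, then 9.83 and 9.59, then 9.68, 9.57 and 9.59, and was the AMPA gene of smallest unadjusted p for heterozygous minus wild type (0.18, SE 0.14, limma unadjusted p = 0.248). Its 3 probe sets gave 0.08, -0.03 and -0.23 for homozygous minus wild type, so they disagreed in sign.

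NMDA receptors pair an obligatory glycine-binding subunit with glutamate-binding subunits, encoded by the Grin2 genes, or with further glycine-binding subunits, encoded by the Grin3 genes. Grin2b measured 6.75, 6.51 and 6.57 on the wild-type arrays, 6.76 and 6.80 on the heterozygous and 7.22, 6.40 and 6.76 on the homozygous arrays. Homozygous 1 was the highest array and homozygous 2 the lowest, and homozygous minus wild type was 0.18 (SE 0.19), or 0.38 (SE 0.17, limma unadjusted p = 0.0666) without heterozygous 2 and homozygous 2. Grin2c measured 5.27, 5.29 and 5.16, then 5.11 and 5.09, then 5.47, 5.04 and 5.31. Its heterozygous minus wild type difference was -0.14 (SE 0.13, limma unadjusted p = 0.321) and homozygous minus wild type 0.03 (SE 0.12), or 0.15 (SE 0.11) without heterozygous 2 and homozygous 2. Grin2d gave -0.04 (SE 0.12) for homozygous minus wild type. Grin2a lay near the bottom of the scale, between 3.41 and 3.75 on all arrays, below the 25th percentile of probe set means. Grin3a and Grin3b differed by 0.02 and 0.01.

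Metabotropic glutamate receptors act through G proteins. Grm5 belongs to the group that raises calcium from stores, and Grm2 and Grm3 form the second group, while Grm4, Grm7 and Grm8 sit with the mGluR6 gene in the third. Grm3 measured 6.21, 5.72 and 5.76 on the wild-type arrays, 5.74 and 5.90 on the heterozygous and 5.51, 5.61 and 5.82 on the homozygous arrays. Groups overlapped through homozygous 3, and homozygous minus wild type was -0.25 (SE 0.15, limma unadjusted p = 0.138), the lowest of the 41. Leaving out wild type 1, the highest array, brought it to -0.09. Grm4 measured 7.40, 6.96 and 6.85, then 7.06 and 7.06, then 7.66, 7.11 and 7.12, a difference of 0.23 (SE 0.19, limma unadjusted p = 0.265) that ran from 0.04 without homozygous 1 to 0.39 without wild type 1, and was 0.32 without heterozygous 2 and homozygous 2. Grm5 measured 8.02, 7.75 and 7.54, then 7.88 and 7.89, then 8.25, 7.41 and 7.98. Its difference was 0.11 (SE 0.21) with this probe set and -0.28 (SE 0.20) with its second one, and without heterozygous 2 and homozygous 2 it was 0.35 (SE 0.18) and -0.34 (SE 0.26). Grm7 had the smallest unadjusted p of the class for heterozygous minus wild type (-0.11, SE 0.22), with overlapping groups.

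GABA-A receptors are rings of 5 subunits, in most neurons alpha and beta subunits with a gamma or delta subunit. Of the 15 genes, 9 had differences above 0 for homozygous minus wild type and the median was 0.02, beside 60.5% and 0.02 for all genes. The count was 11 and the median 0.13 without heterozygous 2 and homozygous 2, beside 63% and 0.05. Gabrq, the theta subunit gene, was the one whose groups did not overlap: it measured 3.53, 3.53 and 3.68 on the wild-type arrays and 3.72, 3.73 and 3.81 on the homozygous arrays, with 3.66 and 3.81 on the heterozygous. The difference was 0.17 (SE 0.09, limma unadjusted p = 0.0972, adjusted p = 0.9999), on values below the 25th percentile of probe set means. Gabrp, the pi subunit gene, gave 0.17 (SE 0.15) and Gabrb2, a beta subunit gene, -0.17 (SE 0.18). Gabrb2 measured 9.18, 8.73 and 8.78, then 8.69 and 9.00, then 8.82, 8.40 and 8.94, and without homozygous 2, its lowest array, the difference was -0.01. These are values of its brightest probe set. Its 5 probe sets disagreed in sign for homozygous minus wild type, with more than 0.3 between the highest and the lowest. Gabra5 measured 3.66, 3.47 and 3.49, then 3.68 and 3.73, then 3.63, 3.40 and 3.29, and its homozygous minus heterozygous value was -0.27 (SE 0.13, limma unadjusted p = 0.0644). Gabra6, the cerebellar granule cell subunit gene, was one of the dimmest of all, between 3.28 and 3.75.

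The rho genes varied over the arrays about as much as a typical gene, with ranges of 0.43 for Gabrr1 and 0.39 for Gabrr2 against a median range of 0.41 for all genes. Gabrr1 measured 10.08, 9.91 and 10.02 on the wild-type arrays, 9.90 and 10.10 on the heterozygous and 10.33, 9.98 and 10.00 on the homozygous arrays. Gabrr2 measured 9.90, 9.79 and 9.56, then 9.55 and 9.79, then 9.94, 9.77 and 9.80. Groups overlapped for both. Homozygous minus wild type was 0.10 (SE 0.12) for Gabrr1 and 0.09 (SE 0.12) for Gabrr2, each less than its standard error.

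Glycine receptors are built of alpha subunits and the beta subunit, which anchors them at synapses. Glra1 measured 7.20, 7.28 and 7.16 on the wild-type arrays, 7.20 and 7.25 on the heterozygous and 7.42, 7.22 and 7.16 on the homozygous arrays, a difference of 0.05 (SE 0.10). Glra2 measured 7.87, 7.44 and 7.53, then 7.59 and 7.76, then 8.20, 7.24 and 7.40, and Glrb measured 9.05, 8.46 and 8.57, then 8.63 and 8.71, then 8.97, 8.53 and 8.61. For these 3 genes the groups overlapped, with homozygous 1 or wild type 1 as the highest array. Glra2 gave -0.0048 (SE 0.24) and Glrb 0.01 (SE 0.18) for homozygous minus wild type, or 0.18 (SE 0.26) and 0.10 (SE 0.22) without heterozygous 2 and homozygous 2. Glra4 stayed between 3.51 and 3.73, below the 25th percentile of probe set means, with -0.05 (SE 0.10).

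Receptor genes also varied over the arrays irrespective of label. The median standard deviation over the 8 arrays was 0.19, against 0.14 for all genes. The median deviation of the 41 genes from their own means was 0.13 on wild type 1 and 0.18 on homozygous 1, the arrays with the lowest actin difference, and from -0.13 to 0.03 on the other 6. Of the 41 genes, 31 lay above their own mean on wild type 1 and 35 on homozygous 1. Both of these arrays lay above all other 6 for 19 receptor genes (23.7% of all genes did so) and below all 6 for 3, Gabrg3, Grik2 and Grm8 (5.97% of all genes).

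**Figure D2:**
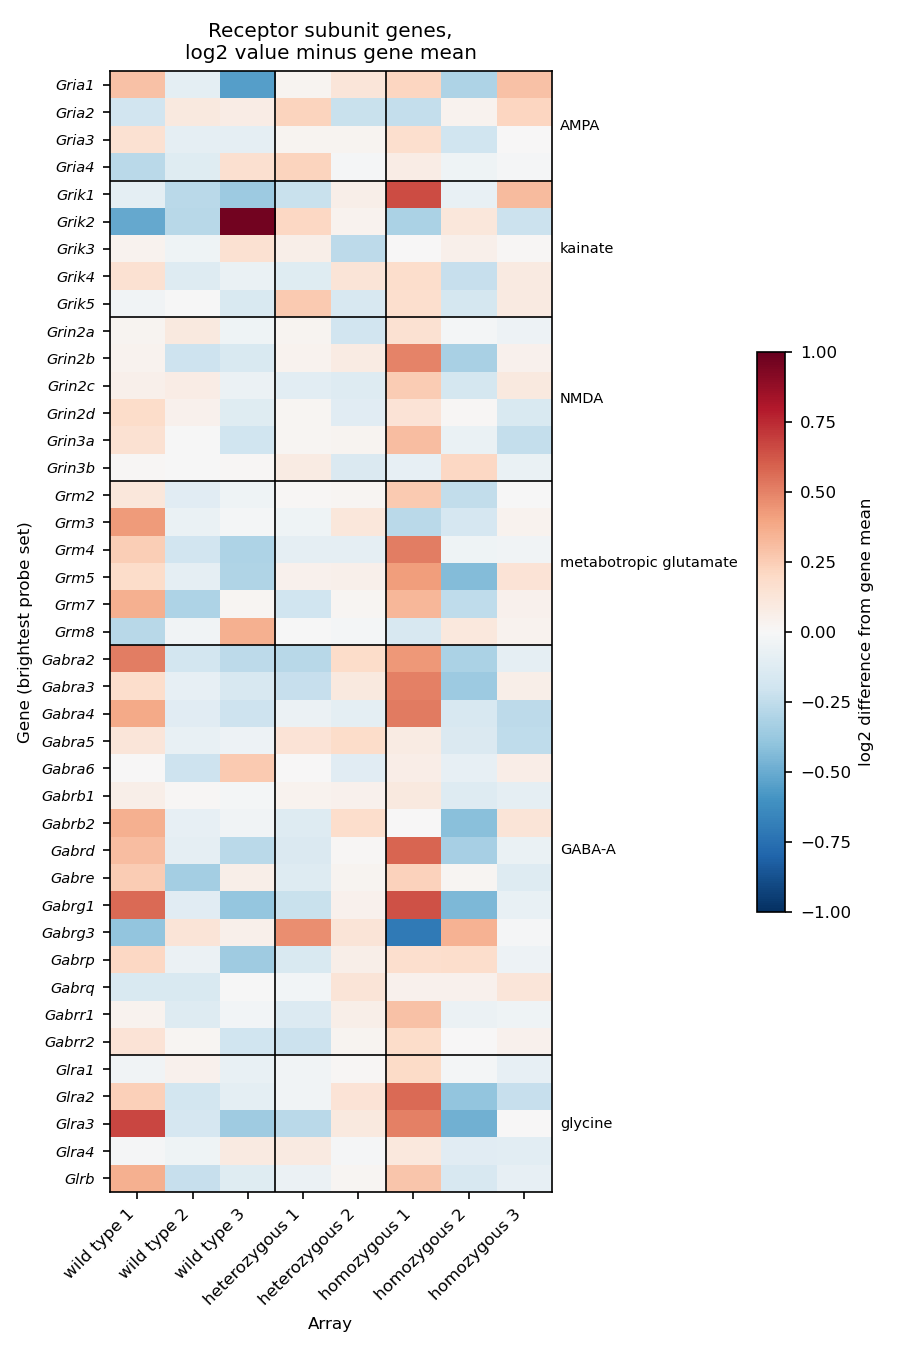
Log2 value minus the gene's own mean for each of the 41 receptor genes (rows, by class) on each of the 8 arrays (columns, by label), with red above and blue below the mean. Wild type 1 and homozygous 1 are red for most genes, 31 and 35 of the 41, and the columns of 1 label do not look alike.

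Glra3, the gene of a glycine receptor alpha subunit known from the inner plexiform layer, differed widely between arrays of the same label. Its brightest probe set measured 9.43, 8.59 and 8.41 on the wild-type arrays, 8.50 and 8.86 on the heterozygous and 9.27, 8.28 and 8.77 on the homozygous arrays. Wild type 1 and homozygous 1 were the highest arrays, and the genotype groups overlapped almost wholly, with homozygous minus wild type at -0.04 (SE 0.31) over all arrays and 0.21 without heterozygous 2 and homozygous 2. In a model holding the genotype labels, Glra3 had a slope of -0.94 (SE 0.16, limma adjusted p = 0.0122) on the actin difference, so it was higher where actin's 5′ signal was lower. Gabrg1, a gamma subunit gene, measured 7.07, 6.39 and 6.12, then 6.28 and 6.55, then 7.14, 6.06 and 6.43, with a slope of -0.93 (SE 0.15, limma adjusted p = 0.0105). The same 2 arrays were its highest.

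In that fit 9 receptor genes had a negative slope past the adjusted threshold, beside 7.42% of all genes, and 1 had a positive slope, beside 1.18%. The 9 were the AMPA gene Gria1, the metabotropic genes Grm4 and Grm5, the GABA-A genes Gabra2, Gabra4, Gabrd and Gabrg1 and the glycine genes Glra3 and Glrb. Their slopes ran from -0.94 (Glra3) to -0.46 (Glrb, SE 0.12, limma adjusted p = 0.0479). All 9 had mean values above the median of all probe sets, as did 26 of the 41 receptor genes and 11028 of all 18193 genes. Of the called negative slopes of all genes, 1179 of 1350 were of genes above that median. The positive slope was that of the gamma subunit gene Gabrg3, at 0.70 (SE 0.18, limma adjusted p = 0.0409), which measured 5.16, 5.68 and 5.60, then 6.02 and 5.68, then 4.84, 5.90 and 5.54. With its second probe set the slope was 0.04. Slopes lay below 0 for 33 of the 41 genes (80.5%), with a median of -0.24, against 64.7% and a median of -0.08 for all genes. Above the median level these were 84.6% and -0.43 for receptor genes, against 71.6% and -0.15 for all genes. At an unadjusted limma p under 0.05, 19 receptor genes sloped down and 3 up, beside 21.7% and 4.82% of all genes.

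These calls rested on few arrays. Without wild type 1 and homozygous 1, limma called 0 receptor genes and 0% of all genes in either direction. With that choice 2 receptor genes had an unadjusted p under 0.05, and 24 of the 41 slopes lay below 0, near the share of 55.4% over all genes. Without heterozygous 2 and homozygous 2, 0 receptor genes were called, beside 0.044% of all genes with a negative slope, 15 had an unadjusted p under 0.05, and 32 slopes lay below 0, beside 66.2% of all genes. Leaving out 1 array at a time left 0 to 8 negative calls. The count was 0 without wild type 1 (0% of all genes), 0 without homozygous 2 (0.258%), 3 without homozygous 1 (0.879%) and 5 without wild type 2 (4.62%). An ordinary test called 0, beside 0.0055% of all genes.

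Ganglion cell markers moved with the same arrays, on which 66.8% of all genes also averaged higher than on the other 6. Their list (7 of 8 genes measured) averaged 9.81 on wild type 1 and 10.01 on homozygous 1, and 9.29 to 9.54 on the other 6. By label the list ran from 9.38 to 9.81 on the wild-type arrays, was 9.54 on both heterozygous arrays and ran from 9.29 to 10.01 on the homozygous arrays. The lens list was also highest there, at 8.18 and 8.68. Amacrine genes, measured for 10 of 10, averaged 9.18 on wild type 1 and 9.40 on homozygous 1, against 9.03 to 9.23 elsewhere. Horizontal cell genes averaged 7.61 and 7.43 there, against 7.10 to 7.43 elsewhere. The bipolar list (9.51 and 9.72) and the vascular list (6.01 and 6.64) were high on homozygous 1 only. Rod genes averaged 13.65 and 13.71 there, against 13.69 to 13.83 elsewhere, and cone genes 10.72 and 10.74, against 10.72 to 10.98. Pigment epithelium and choroid genes averaged 8.76 and 8.63, against 7.997 to 8.77, and microglia genes 6.36 and 6.53, against 6.10 to 6.54. The part of these lists, and of RNA quality, in the receptor genes' slopes was not tested.

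**Figure D3:**
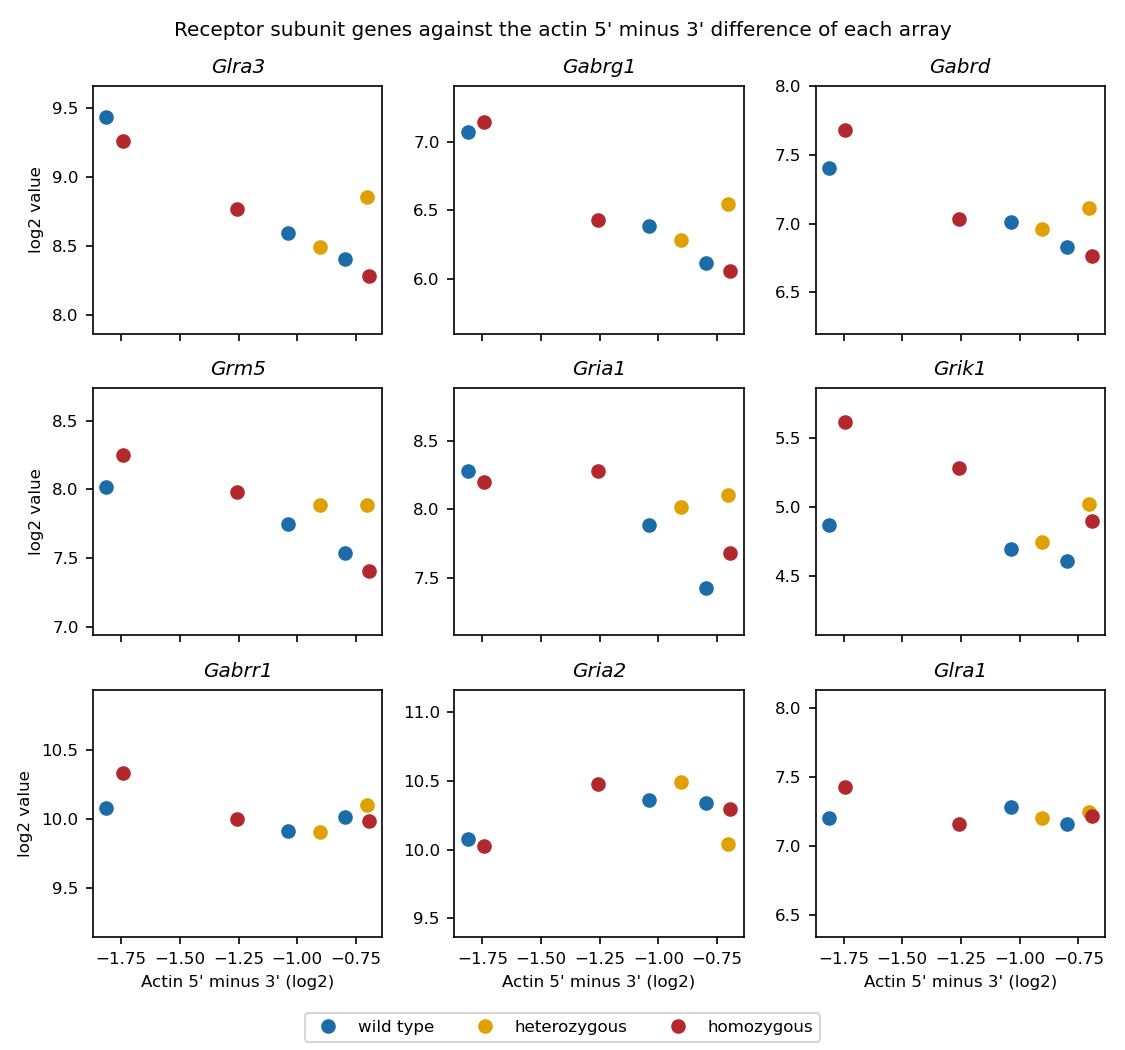
Log2 value of 9 receptor genes (vertical axis, each spanning 1.8 log2 units) against the actin 5′ minus 3′ log2 difference of the same array (horizontal axis), 1 point per array, coloured by genotype label. Glra3 and Gabrg1 are highest on the 2 arrays at the left, with actin differences of -1.81 and -1.74, while Gabrr1, Gria2 and Glra1 do not have a called slope.

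A second probe set of the same gene often behaved otherwise. Of 25 receptor genes with more than 1 probe set, 10 had a difference between brightest and second probe set that sloped with the actin difference past the adjusted threshold (limma), beside 24.5% of the 9010 genes with a pair. They were Gabra2, Gabra3, Gabrd, Gabrg1, Glra1, Glra3, Gria3, Grik2, Grm5 and Grm7. For Gabra3, an alpha subunit gene, the slope was -0.54 with the brightest and 0.84 with the second probe set, a difference of -1.38 (SE 0.20, limma adjusted p = 0.0033). Glra3 had -0.94 and 0.37, which differed by -1.31 (SE 0.17, limma adjusted p = 0.0029), and Gria3 had -0.30 and 0.82, which differed by -1.12 (SE 0.19, limma adjusted p = 0.0051). So for these genes one probe set was higher and the other lower on wild type 1 and homozygous 1. The second Glra3 probe set lay below the 25th percentile of all probe set means (4.39) on every array. Without wild type 1 and homozygous 1 the differences in slope were -1.43 for Gabra3, -1.04 for Glra3 and -1.002 for Gria3, with limma adjusted p from 0.252 to 0.346. Without heterozygous 2 and homozygous 2 they were -1.49, -1.49 and -1.21, with adjusted p from 0.0595 to 0.0683, so either choice ended the 3 calls.

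**Figure D4:**
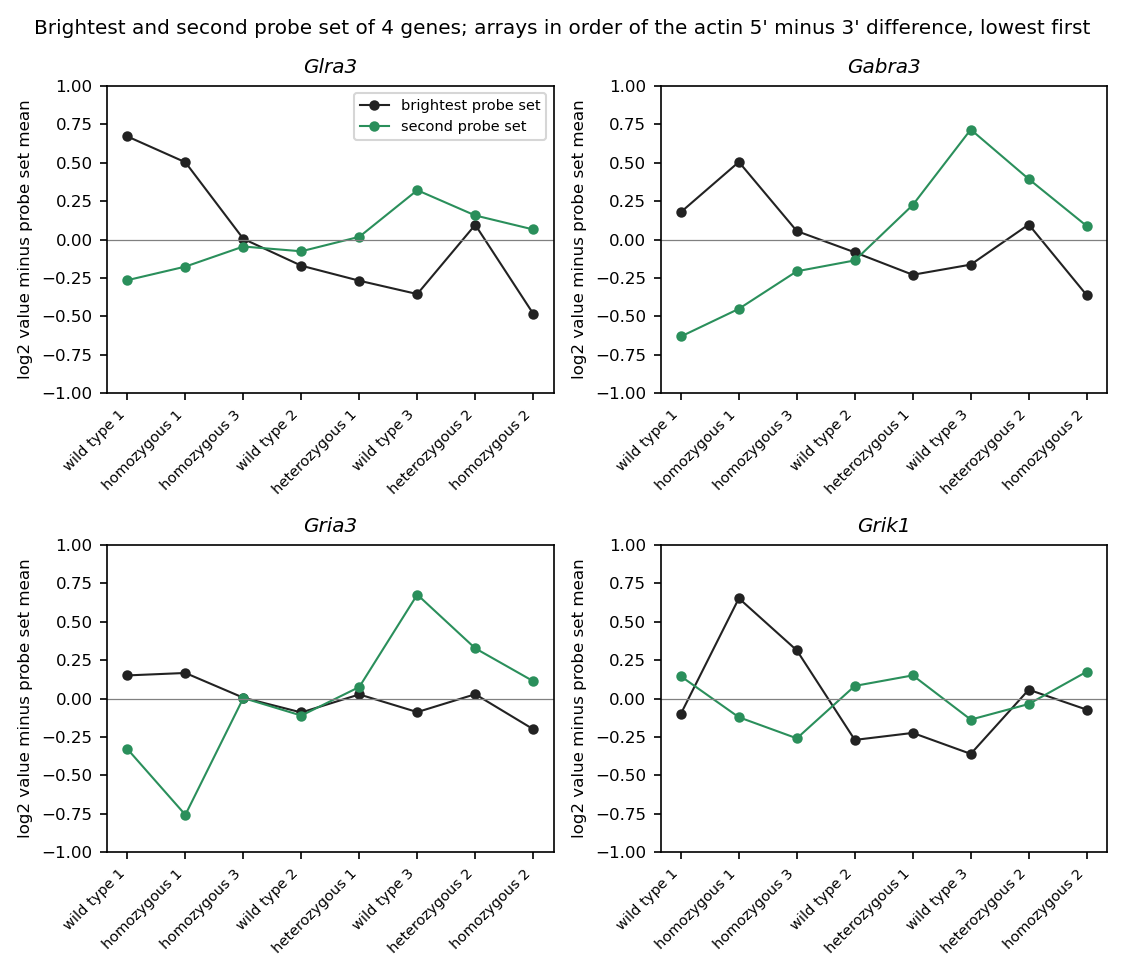
Log2 value minus probe set mean for the brightest (black) and second (green) probe set of Glra3, Gabra3, Gria3 and Grik1, with the 8 arrays in order of their actin difference, lowest first. In Glra3, Gabra3 and Gria3 the second probe set is lowest on wild type 1 and homozygous 1, where the brightest is highest or among the highest, and for Grik1 the black points of homozygous 1 and 3 stand above the rest.

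Windows before the start of 4 of the genes with a called negative slope are shown here, and each window lies outside the annotated gene. Gabra4 also had a called negative slope and such a window, with 2 GC boxes, which is not shown. Those slopes are of the brightest probe sets. With the second probe set the slope was 0.37 for Glra3, -0.20 for Gabrg1, -0.09 for Gabra2 and -0.57 for Glrb. The sequences are those of RefSeq on build GRCm38.p6, 250 bases long and written 5′ to 3′ on the gene's strand: chr8:55940168-55940417 (plus strand) for Glra3, chr5:70842618-70842867 (minus) for Gabrg1, chr5:71095850-71096099 (minus) for Gabra2 and chr3:80913661-80913910 (minus) for Glrb. Capitals mark matches, on either strand, to the GC box GGGCGG and to TAATCC, the core bound by the retinal factors OTX2 and CRX.
Glra3: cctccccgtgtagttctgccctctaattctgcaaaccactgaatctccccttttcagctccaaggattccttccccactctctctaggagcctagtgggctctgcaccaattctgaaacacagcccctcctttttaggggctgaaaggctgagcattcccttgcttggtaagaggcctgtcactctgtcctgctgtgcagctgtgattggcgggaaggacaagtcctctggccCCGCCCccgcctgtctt
Gabrg1: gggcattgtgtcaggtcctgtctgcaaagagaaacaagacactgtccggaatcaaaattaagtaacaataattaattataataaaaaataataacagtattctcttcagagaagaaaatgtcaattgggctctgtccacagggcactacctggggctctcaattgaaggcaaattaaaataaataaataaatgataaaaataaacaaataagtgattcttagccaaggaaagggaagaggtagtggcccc
Gabra2: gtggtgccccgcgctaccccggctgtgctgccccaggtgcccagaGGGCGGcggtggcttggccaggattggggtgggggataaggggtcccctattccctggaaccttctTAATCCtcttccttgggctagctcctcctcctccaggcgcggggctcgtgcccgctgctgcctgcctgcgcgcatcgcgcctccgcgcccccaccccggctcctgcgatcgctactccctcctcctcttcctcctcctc
Glrb: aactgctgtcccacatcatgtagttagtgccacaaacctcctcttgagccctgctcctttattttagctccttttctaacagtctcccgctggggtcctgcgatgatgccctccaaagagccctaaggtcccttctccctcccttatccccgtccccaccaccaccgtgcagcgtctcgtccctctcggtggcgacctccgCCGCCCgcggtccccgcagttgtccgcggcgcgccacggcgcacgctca

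The windows differ in composition, with 56% G and C for Glra3, 35.6% for Gabrg1, 70% for Gabra2 and 62.4% for Glrb. Glra3, Gabra2 and Glrb hold 1 GC box each, Gabra2 also holds 1 TAATCC, and Gabrg1 holds neither. Of the 41 genes, 31 had windows in the RefSeq table, 38 windows in all. GC boxes were in 19 of these (50%), against 32.7% of all 32851 windows, and TAATCC was in 2 (5.26%), of Gabra2 and Gabrr2, against 6.25%. The TATA box TATAAA was in 5 (13.2%, against 12.4%) and the E-box CACGTG in 0 (6.02% of all windows). Some windows of the same gene overlap and hold the same match, as for Grm7 and Gabra3. By gene, 18 of the 31 had a GC box and 4 a TATA box. The 38 windows had a median G and C content of 58.8%, and all windows 52.4%. A match is a description of letters, not of a bound site.

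Receptor genes also lie next to each other, and neighbours did not share a slope throughout. On chromosome 5, Gabrg1 and Gabra2 are adjacent and had slopes of -0.93 and -0.70, and the overlapping genes Gabra4 and Gabrb1 had -0.60 and -0.14. On chromosome 7, Gabrg3 had 0.70 beside Gabra5 with -0.19. Gria2 and Glrb, adjacent on chromosome 3, had 0.22 and -0.46, and Gabra3 and Gabrq on X had -0.54 and 0.07. The rho genes Gabrr1 and Gabrr2 on chromosome 4 had similar values, -0.19 and -0.20, neither of which was called. All these slopes are of the brightest probe sets. With the second probe set Gabrg3 had 0.04, Gabra3 0.84, Gabrg1 -0.20 and Gabra2 -0.09. Gria2 and Glrb (0.32 and -0.57) and Gabra4 and Gabrb1 (-0.56 and -0.28) kept their signs. How alike neighbours were thus depended in part on the probe set.

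Genes that work with these receptors gave 0 calls past the adjusted threshold in either direction, in homozygous minus wild type and in the other 2 comparisons. Over all genes, 60.5% of homozygous minus wild type differences lay above 0, with a median of 0.02. Without heterozygous 2 and homozygous 2 these were 63% and 0.05. Auxiliary and scaffold proteins of glutamate receptors (24 of 25 genes measured) had 19 differences above 0 and a median of 0.07 for homozygous minus wild type. The median was 0.14, again with 19 above 0, without heterozygous 2 and homozygous 2. With all arrays, the 2 of smallest unadjusted p were Cacng3, an AMPA receptor auxiliary subunit gene, at 0.27 (SE 0.18), and the scaffold gene Shank1 at -0.15 (SE 0.11). These were 0.13 and -0.21 without heterozygous 2 and homozygous 2. For heterozygous minus wild type, 2 genes of this list were higher at an unadjusted limma p under 0.05, beside 0.451% of all genes. None was lower, beside 0.72%. Cacng3 differed by 0.59 (SE 0.20, limma unadjusted p = 0.0183) and Shisa6 by 0.26 (SE 0.11, limma unadjusted p = 0.0432). The adjusted p was above the threshold for both. The mGluR6 cascade of ON bipolar cells (10 of 11 measured) had 7 above 0 and a median of 0.02, with Rgs7 and Gnb3, a regulator and a subunit of its G protein, both at 0.14. This list had 8 above 0 and a median of 0.09 without heterozygous 2 and homozygous 2.

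On the inhibitory side, postsynaptic scaffold and chloride transport genes (10 of 11 measured) had 7 differences above 0 and a median of 0.03. The median was 0.06, again with 7 above 0, without heterozygous 2 and homozygous 2. Lhfpl4, which helps to place GABA-A receptors at synapses, gave 0.19 (SE 0.15) and the adhesion gene Nlgn2 0.17 (SE 0.20), and both were at 0.34 without heterozygous 2 and homozygous 2. Genes of transmitter synthesis and transport (15 of 18 measured) had 9 above 0 and a median of 0.03, with the GABA transporter gene Slc6a11 at -0.31 (SE 0.15, limma unadjusted p = 0.0648) and the vesicular glutamate transporter gene Slc17a7 at 0.27 (SE 0.21). This list had 12 above 0 and a median of 0.11 without heterozygous 2 and homozygous 2. Of the delta glutamate and GABA-B receptors 2 of 4 were measured, Grid1 at 0.31 (SE 0.21) and Gabbr1 at 0.07 (SE 0.12). Slc17a7 was at 0.17, Grid1 at 0.53 and Gabbr1 at 0.15 without heterozygous 2 and homozygous 2.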

How the data were processed

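Retinal RNA of 8 samples was measured on 1 array each. The deposited table holds log2 values per probe set, which the authors computed with RMA, as the submitters' processing notes say. RMA equalises the arrays' distributions, so differences are relative to the bulk of transcripts. Its version is not given in the sources used here. The 64 control probe sets were left out. The number of arrays limits the precision, values ran from 2.50 to 14.57, and no detection calls were used. Of the probe sets tested, 34945 carried a single gene symbol in the platform annotation, and only these were named; 932 listed several genes and 9160 listed none.

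Group means were fitted with limma 3.58.1 in R 4.3.3 (lmFit and eBayes, two-sided, 5 residual degrees of freedom). SE is the moderated standard error. Leaving out heterozygous 2 and homozygous 2 left 3 residual degrees of freedom. Slopes came from the same model with the actin 5′ minus 3′ difference (AFFX control probe sets) added, a choice made after the data were seen. Scripts were tested on simulated data. The members and gene lists were chosen with earlier results of these data known. Named genes were members with a textbook place in the retina, in each class the 3 of smallest unadjusted p for homozygous minus wild type and the 1 for each other comparison, the 5 of largest standard deviation, those whose probe sets differ in sign by more than 0.3, and the 4 dimmest; others were named for a slope or a lack of overlap after their values were seen. Alternatives covered the normalization, the fit, the probe set choice and the arrays included.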

Additional observations from a re-analysis of the deposited data

How the results depend on the processing

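No receptor gene was called between genotype labels under any setting tried, so these results limit sizes and directions and not calls. With 3, 2 and 3 arrays, small differences were out of reach of the test, and dim probe sets near the lower end of the scale give little. Nxnl1 itself was not called, at -1.91 for homozygous minus wild type with all arrays. Its SE (0.73) was wider than that of any receptor gene, so it says little about them. A lack of calls alone does not show that differences were small. Leaving out a heterozygous array leaves 1 sample there, assumed to vary like the other groups. The causes of the changes below were not tested.

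Probe sets called were 0 to 1 when 1 array was left out, for homozygous minus wild type and for heterozygous minus wild type (the 1, without wild type 3, is an unnamed probe set), and 0 for homozygous minus heterozygous. The receptor genes' median ran from -0.07 to 0.11, from -0.05 to 0.09 and from -0.10 to 0.11 in those comparisons; with the actin difference as covariate it was 0.13 for heterozygous minus wild type and -0.11 for homozygous minus heterozygous. Receptor genes with a negative actin slope past the adjusted threshold numbered 9 (7.42% of all genes had one), but 15 with equal array medians (13.8% of all genes), 0 without heterozygous 2 and homozygous 2, 0 without wild type 1 and homozygous 1, 0 in the ordinary test and 0 to 8 with 1 array left out. The 1 positive slope was lost (0) with those arrays left out, with quantile normalization repeated and in the ordinary test, and 0 to 1 remained with 1 array left out.

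For the genes named for their unadjusted p, differences of homozygous minus wild type changed sign as follows. Array weights gave Gabrb2 0.094, Glra1 -0.075, Glra3 0.11, Grik2 0.025 and Grm3 0.0067. Without wild type 1 and homozygous 1, Glra1 was -0.031, Glra3 0.023, Gria4 -0.048 and Grin2c -0.051. Without heterozygous 2 and homozygous 2, Glra3 was 0.21 and Gria2 -0.0063, and quantile normalization repeated gave Gria2 -0.0028. The mean of all probe sets gave Gria2 -0.072, Gria4 -0.058 and Grm5 -0.086. Leaving out 1 array, the ranges were Glra1 -0.025 to 0.11, Glra3 -0.29 to 0.27, Gria1 -0.031 to 0.39, Gria2 -0.10 to 0.13, Gria4 -0.015 to 0.20, Grik2 -0.48 to 0.26, Grin2b -0.031 to 0.38, Grin2c -0.065 to 0.15, Grin2d -0.11 to 0.042 and Grm5 -0.076 to 0.35. Of other genes given with a difference, leaving out 1 array also turned the sign of Glra2 (-0.30 to 0.18), Glrb (-0.12 to 0.19), Gabrr1 (-0.014 to 0.16), Gabrr2 (-0.0010 to 0.17), Gria3 (-0.088 to 0.095), Grin3a (-0.13 to 0.14), Grin3b (-0.081 to 0.064) and Gabbr1 (-0.034 to 0.15).

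For heterozygous minus wild type, Glra3 was 0.040 with array weights, 0.25 with the covariate and 0.18 without wild type 1 and homozygous 1. Grik3 was 0.0081 without heterozygous 2 and homozygous 2 and 0.043 as the mean of its probe sets. Grm7 was 0.14, 0.084 and 0.051 under the settings named for Glra3. With 1 array left out, Glra3 ran from -0.34 to 0.18, Grik3 from -0.31 to 0.0081 and Grm7 from -0.28 to 0.051, and for homozygous minus heterozygous Gria4 ran from -0.22 to 0.022.

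With the replicate number as a block, limma called 0 probe sets in each comparison. Same-numbered arrays deviated from their group means with correlations of -0.248 to 0.616, highest for wild type 1 with homozygous 1. The 2 heterozygous arrays deviate from their mean in mirror image, so their correlations cannot show a pairing. Whether same-numbered samples share more than the number is not stated, and the pairing was not used.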
